A study of Mus musculus with 34 samples.

Results

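The 53 genes described here belong to the mouse cell cycle and DNA replication machinery, measured on 34 Affymetrix arrays of bone-marrow-derived macrophages given bacterial lipopolysaccharide (LPS). The members were taken by symbol from the table that pairs probe sets with genes, and where a gene had several probe sets, the brightest on average stands for it. Of the 53 genes, 49 had a probe set of their own and 44 passed the filter on low signals, out of 8224 probe sets tested in all. The other 5, Mcm6, Rfc4, Prim1, Bub1 and Kif11, reached a signal of 200 in fewer than 2 arrays, and 4 had no probe set of their own (Tyms, Ccnb1, Cdc25b and Bub1b). All values are signals on a linear scale that each array shares, and changes are differences of log2(signal + 50) with their standard error.

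The labels give 16 groups of macrophages grown from marrow for 7 days and kept for 1 h in complete medium. Resting cells, on 4 arrays with no genotype named, had grown in L-cell conditioned medium as the source of CSF-1, the macrophage growth factor. Wild type, IL-10-/- and IL-6-/- cells, with mCSF (CSF-1) named as their growth factor, were given 100 ng/ml of LPS, with or without 10 ng/ml of IL-10, for 45 or 180 min. At 45 min a further arm of each genotype received LPS with IL-6 at 2 ng/ml. Stimulated groups held 2 arrays each, except that 1 array at each time represented IL-6-/- cells with only LPS. The labels call the arrays of a group biological replicates, but neither the number of mice nor any pooling is given. The p-values rest on array-to-array spread, and how far it covers spread between mice is not known. No group was stimulated without LPS, and no resting array is labelled as a knockout, so a comparison with resting cells cannot tell LPS, the source of CSF-1 and the genotype of the resting cells apart.

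A cell prepares to divide by loading the MCM helicase onto replication origins, then copies its DNA and segregates the copies in mitosis. D cyclins with Cdk4 start the cycle by phosphorylating the retinoblastoma protein, which frees E2F factors to transcribe replication genes, and inhibitors such as p21 (Cdkn1a) hold the kinases back. Later genes such as Cdk1, Ccnb2 and Cdc20 are transcribed in G2 and mitosis through CCAAT boxes and CHR elements. Macrophages from marrow proliferate in response to CSF-1, and LPS is known to stop that proliferation.

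Promoter sequences of a few members are shown as examples of where these elements lie. They come from RefSeq on GRCm38.p6, as windows of 300 bases (250 before the start and 50 after it), of which 52 belong to 45 members and 32851 to all genes. Capitals mark E2F words (TTTCCCGC, TTTCGCGC, TTTGCCGC or TTTGGCGC), the CHR word TTTGAA, the word CCAAT, all on either strand, and, in Cdkn1a, the p53 half-site. The first is a stretch of 30 bases from the Mcm5 window, where the E2F words TTTCGCGC and GCGCCAAA (TTTGGCGC on the other strand) overlap, at chr8:75109347-75109376 on the plus strand.
Mcm5: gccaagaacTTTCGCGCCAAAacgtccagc
Cdk1, at chr10:69352913-69353132 on the minus strand, holds an E2F word, the CHR word and CCAAT together.
Cdk1: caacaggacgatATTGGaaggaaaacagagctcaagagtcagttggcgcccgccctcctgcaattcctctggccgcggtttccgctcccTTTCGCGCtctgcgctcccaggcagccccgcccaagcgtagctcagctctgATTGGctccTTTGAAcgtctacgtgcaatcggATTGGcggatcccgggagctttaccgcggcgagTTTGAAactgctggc
Cdc20, at chr4:118437344-118437563 on the minus strand, carries the CHR word between CCAAT words.
Cdc20: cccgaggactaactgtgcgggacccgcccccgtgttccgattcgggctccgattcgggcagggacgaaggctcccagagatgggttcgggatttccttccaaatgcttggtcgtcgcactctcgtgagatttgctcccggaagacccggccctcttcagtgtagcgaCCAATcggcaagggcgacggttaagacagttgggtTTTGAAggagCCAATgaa
Ccnb2, at chr9:70421555-70421774 on the minus strand, carries 3 CCAAT words in a row. The CHR word marked in it lies at -167 from the start. The window's other CHR word, at base 5 after the start, falls outside the stretch shown.
Ccnb2: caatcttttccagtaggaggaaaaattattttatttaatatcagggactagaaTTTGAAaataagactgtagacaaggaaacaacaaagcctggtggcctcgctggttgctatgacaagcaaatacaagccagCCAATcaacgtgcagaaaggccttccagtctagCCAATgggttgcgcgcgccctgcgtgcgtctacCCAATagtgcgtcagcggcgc
Cdkn1a, at chr17:29090759-29090978 on the plus strand, is shown as the member that rose most against resting cells; this window holds 2 matches to the p53 half-site, and the other Cdkn1a window holds none.
Cdkn1a: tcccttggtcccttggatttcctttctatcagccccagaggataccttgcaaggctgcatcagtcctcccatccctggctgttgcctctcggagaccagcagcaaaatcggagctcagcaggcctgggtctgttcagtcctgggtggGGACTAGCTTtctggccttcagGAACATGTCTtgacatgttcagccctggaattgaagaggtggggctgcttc
An E2F word lay in 21.2% of member windows and in 2.26% of all windows. CHR lay in 26.9% and 17.9%, CCAAT in 63.5% and 37.4%, and the p53 half-site in 13.5% and 8.36%. Some members have more than 1 window, and a match of letters is a description of the sequence only.

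The cells carried the macrophage markers throughout: the 9 listed markers summed to 141475.5 to 205583.3 signal units over the 32 grouped arrays. The 10 stromal markers (collagens, Sparc, Lox and others) summed to 1180.0 to 3563.7 in resting arrays, 8426.5 to 15254.8 at 45 min and 8264.2 to 13817.7 at 180 min. Of the 9 stromal markers tested, 8 were higher than in resting cells at both times, and none of the 9 passed between 180 and 45 min by limma (0 at an unadjusted p under 0.05 for the mean of 6 arms). The 9 neutrophil and granulocyte markers summed to 1383.6 to 3452.3 at rest, 546.5 to 1240.8 at 45 min and 1177.8 to 3886.6 at 180 min. Over the 6 arms between 45 and 180 min, 5 of the 9 macrophage markers were lower and 1 was higher at 180 min, and 1 of 6 tested neutrophil markers was higher. The part of these markers in the results was not tested. In total RNA of a culture, fewer cells of a type and less RNA per cell cannot be told apart.

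The resting arrays differed among themselves. In 27 of the 44 members tested (61.4%, against 23.3% of all probe sets) resting replicates 2 and 4 both lay above replicates 1 and 3, a pattern seen in the data and given as a description. Ccnb2, cyclin B2 of mitosis, read 1016.2, 5314.4, 991.6 and 3051.1 in resting replicates 1 to 4. The mean log2 level of the 10 mitosis genes ran from -0.83 to 1.01 around the resting mean, against -0.88 to -0.29 at 45 min and -0.74 to -0.28 at 180 min. Stimulated arrays spread less than resting arrays for the mitosis genes. Resting replicate 4 also had the lowest median correlation with the other arrays, 0.805.

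**Figure D1:**
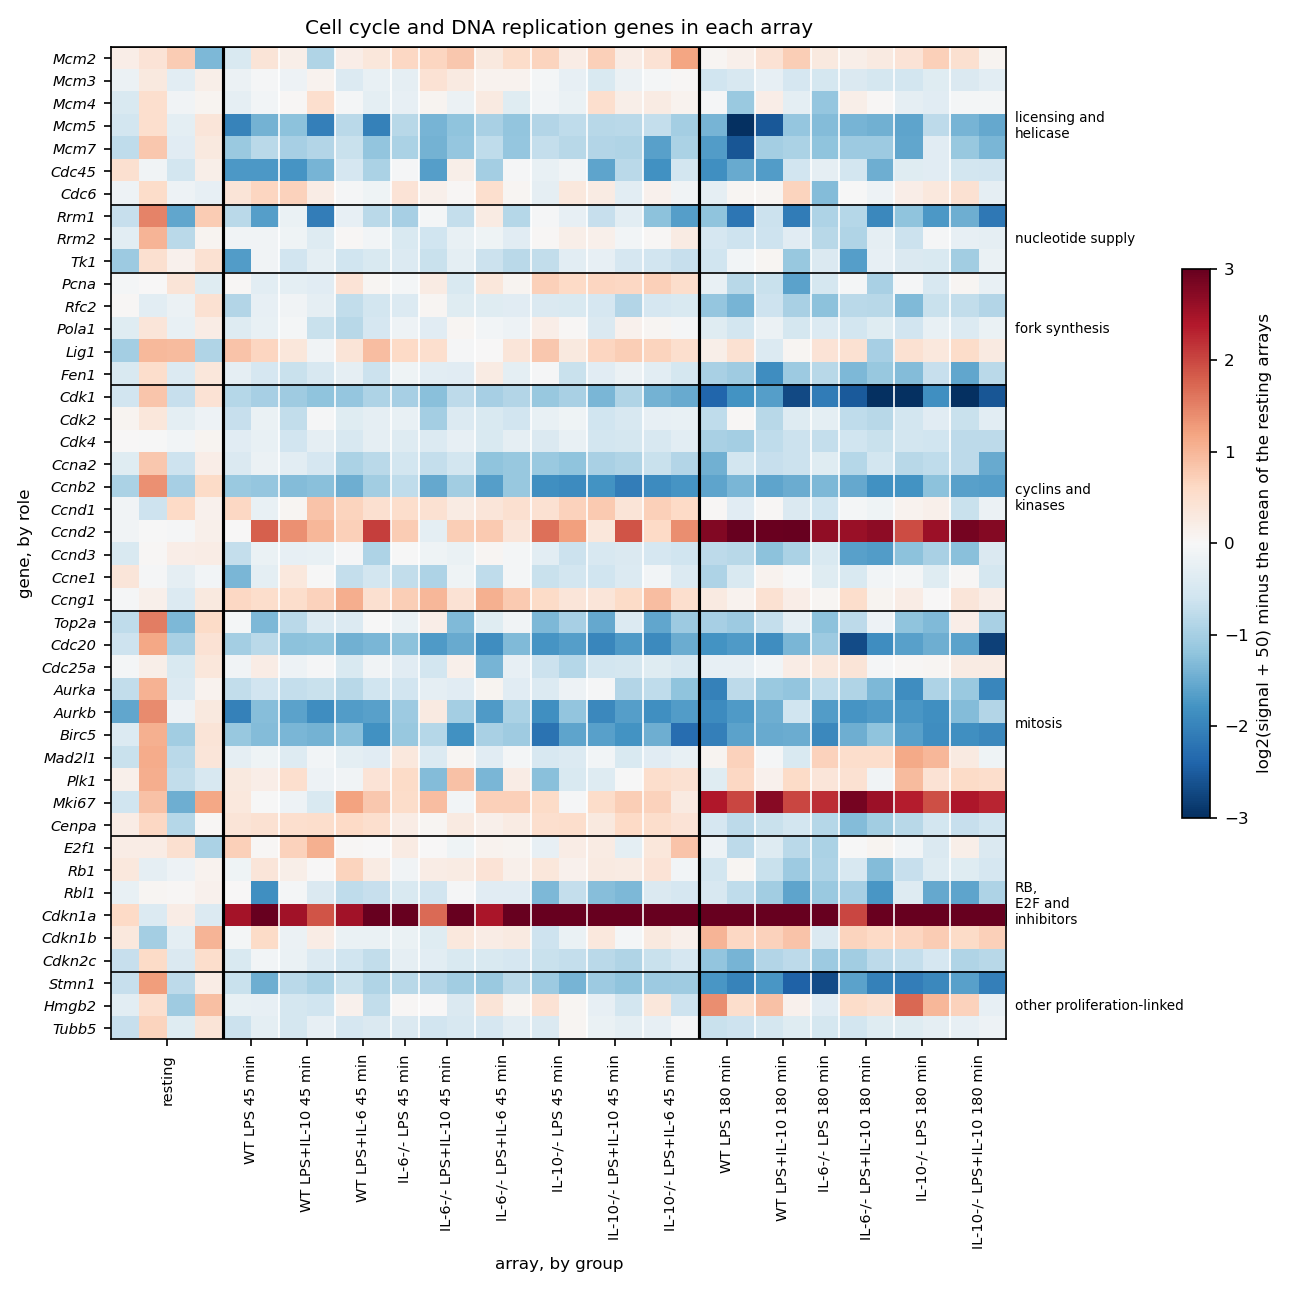
Each row is 1 of the 44 members tested, ordered by role, and each column 1 of the 32 grouped arrays (resting, 45 min and 180 min, separated by black lines). Colour gives log2(signal + 50) minus the mean of the 4 resting arrays, with differences beyond 3 in either direction drawn at the end of the scale. Cdkn1a is red in all 28 stimulated arrays and Mki67 and Ccnd2 at 180 min, while Cdk1, Mcm5 and Stmn1 are blue.

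Wild type cells with LPS were first compared with resting cells. At 45 min, 6 of the 44 members were lower, 1 was higher and 37 did not pass the test (limma, Benjamini-Hochberg adjusted p under 0.05 over 8224 probe sets, the meaning of a call throughout). At 180 min, 20 were lower, 3 were higher and 21 did not pass. Over all probe sets, 7.75% were called lower and 9.00% higher at 45 min, and 19.4% lower and 14.4% higher at 180 min. The median member change was -0.29 at 45 min and -0.60 at 180 min, against 0.03 and -0.09 over all probe sets. At 180 min the helicase gene Mcm5 fell by 2.22 and the inhibitor gene Cdkn1a rose by 4.04 on the log2 scale. Where wild type and resting arrays of a gene are said below not to overlap, the share of all probe sets doing so was not counted.

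**Figure D2:**
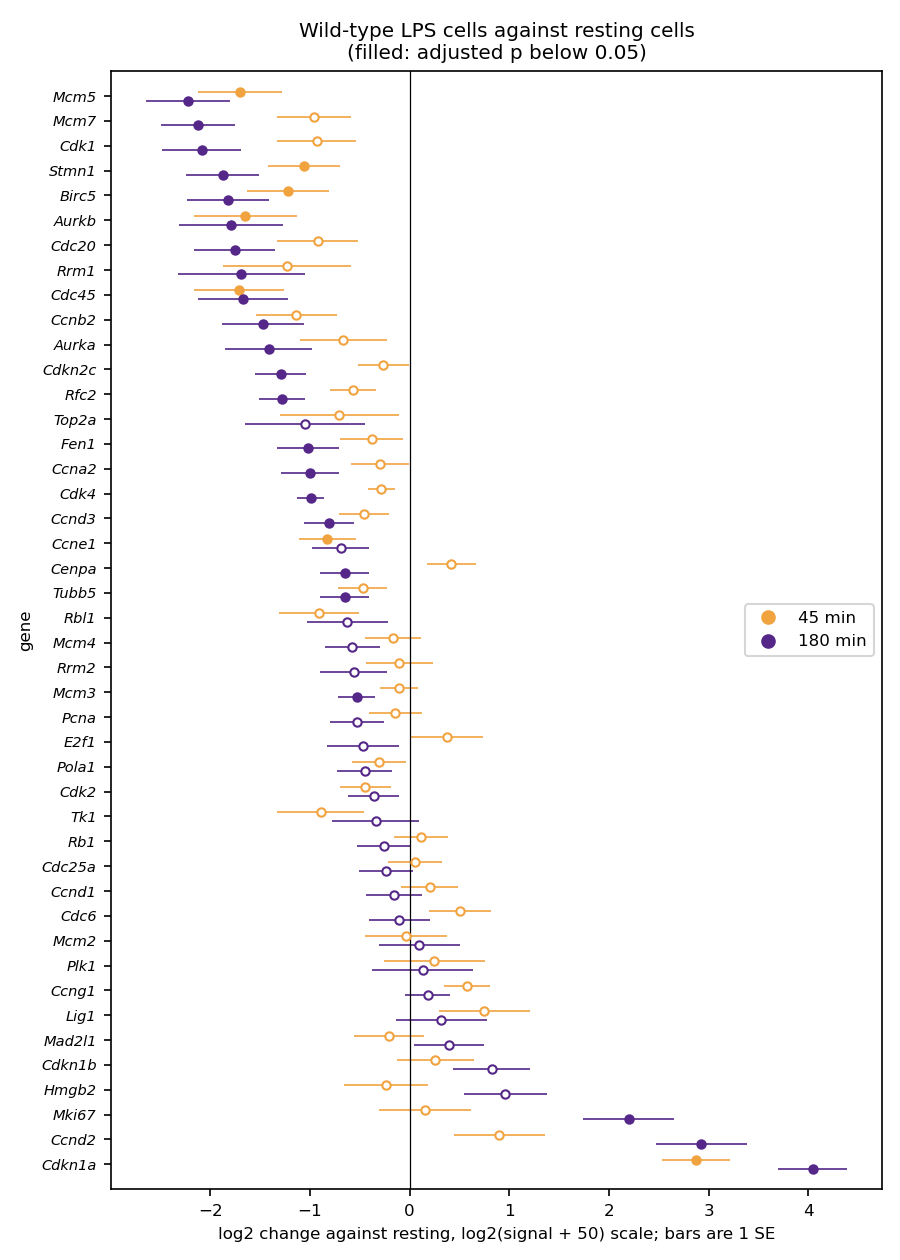
Points give the log2 change of each tested member in wild type LPS cells against resting cells at 45 min (orange) and 180 min (purple), on the log2(signal + 50) scale, with bars of 1 standard error. Filled points passed the test: 20 members lie left of 0 at 180 min, led by Mcm5 and Mcm7, and Cdkn1a, Ccnd2 and Mki67 lie right of it.

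Among the 8 licensing and helicase genes, 7 were tested, of which 2 were lower at 45 min and 4 at 180 min. Mcm5, a subunit of the MCM helicase, read 571.7, 1237.1, 693.9 and 1124.2 in resting cells, 179.3 and 294.8 at 45 min, and 298.7 and 60.7 at 180 min in wild type. All 28 stimulated arrays of any genotype lay below the lowest resting array for Mcm5. It fell by 1.70 ± 0.42 at 45 min (limma adjusted p = 0.00689) and fell by 2.22 ± 0.42 at 180 min (adjusted p = 0.000208), or 3.25- and 4.65-fold. Its 45 min call was lost without LPS 45 min replicate 1 (-1.41, adjusted p = 0.117). Its size at 180 min turned on 1 array: the change was -3.05 without LPS 180 min replicate 1 and -1.39 without replicate 2 (adjusted p = 4.73e-05 and 0.0393). The weaker probe set of Mcm5 gave 0.56 ± 0.48 at 180 min (adjusted p = 0.406), and averaging both probe sets gave -0.83 (adjusted p = 0.073), so the fall rests on 1 probe set.

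Mcm7, another helicase subunit, read 245.6, 837.4, 346.6 and 572.2 at rest, 184.8 and 237 at 45 min, and 108.8 and 34.7 at 180 min. The 180 min arrays of Mcm7 lay below all resting arrays, and the fall at 180 min was 4.35-fold (-2.12 ± 0.37, adjusted p = 6.86e-05 by limma). At 45 min the change of Mcm7 was -0.96 and did not pass. Cdc45, which joins the helicase at the fork, read 483.1, 306.3, 211.3 and 377.9 at rest, 66.6 and 66.5 at 45 min, and 56.8 and 84.9 at 180 min. Cdc45 fell by 1.71 ± 0.45 at 45 min (adjusted p = 0.0104) and by 1.67 ± 0.45 at 180 min (adjusted p = 0.0053). The Cdc45 call was lost at 45 min without LPS 45 min replicate 1 (adjusted p = 0.0735) or replicate 2 (0.0764), and at 180 min without LPS 180 min replicate 1 (0.0675). In the other genotypes Cdc45 was not uniformly low. It read 56.8 to 218.5 in the stimulated wild type arrays of all arms and 58.8 to 381.4 in the knockout arrays. Of the 28 stimulated arrays of all genotypes, 17 lay below the lowest resting array.

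The other MCM genes moved less. Mcm3 read 477.7, 672.9, 427.2 and 622.6 at rest and 342.4 and 377 at 180 min in wild type, a fall of 0.53 ± 0.19 (adjusted p = 0.0321 by limma). That call was lost without resting replicate 2 (adjusted p = 0.0869), resting replicate 4 (0.0637), LPS 180 min replicate 1 (0.184) or replicate 2 (0.0898). Mcm4 (-0.57 ± 0.28, adjusted p = 0.12), Mcm2 (0.10 ± 0.41) and the licensing factor gene Cdc6 (-0.10 ± 0.31) did not pass at 180 min. Mcm6 had a mean signal of 41.4 and was left out of the main tests. Within 1 hexameric complex, then, Mcm5, Mcm7 and Mcm3 fell and Mcm2 and Mcm4 did not pass, a contrast between members that was not itself tested.

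For nucleotide supply and fork synthesis, 1 of 3 and 2 of 5 tested genes were lower at 180 min, and none of either group passed at 45 min (limma, 0 and 1 at an unadjusted p under 0.05). Rfc2, a subunit of the clamp loader, read 908.6, 692.2, 780.6 and 1223.1 at rest and 364.7 and 304.7 at 180 min, and fell 2.43-fold (-1.28 ± 0.23, adjusted p = 0.000101). Fen1, the flap endonuclease of lagging-strand synthesis, read 231.5, 505.1, 243 and 443.2 at rest and 147.4 and 135.7 at 180 min (-1.02 ± 0.32, adjusted p = 0.0142). The Rfc2 and Fen1 arrays at 180 min did not overlap the resting ones, though the test on the same arrays had picked both genes. The Fen1 call was lost without LPS 180 min replicate 1 (adjusted p = 0.0661) or replicate 2 (0.0952). Rrm1, the large subunit of ribonucleotide reductase, fell by 1.69 ± 0.64 (adjusted p = 0.0435), a call lost without resting replicate 2 (0.142), resting replicate 4 (0.105), LPS 180 min replicate 1 (0.0594) or replicate 2 (0.326). The clamp gene Pcna (-0.53 ± 0.27, adjusted p = 0.14), Rrm2, Tk1, Pola1 and Lig1 did not pass.

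Of 10 tested cyclin and kinase genes, 5 were lower and 1 was higher at 180 min. Cdk1, the kinase that drives entry into mitosis, read 557.4, 1540.7, 502.7 and 1165.1 at rest, 442.5 and 399 at 45 min, and 121.7 and 210.6 at 180 min. Each step down in Cdk1 left no overlap with the group before. It fell by 2.08 ± 0.39 at 180 min, 4.24-fold (limma adjusted p = 0.000185), and over all genotypes the 28 stimulated arrays lay below the 4 resting ones. Cdk4, the partner of D cyclins, read 2134.9 to 2394.2 at rest, 1779.5 and 1912.8 at 45 min, and 1126.2 and 1092.2 at 180 min. The Cdk4 fall was small and tight (-0.99 ± 0.14, 1.99-fold, adjusted p = 3.56e-06), and its weaker probe set gave -0.10 ± 0.23 (adjusted p = 0.787). Mcm5, Cdk1 and Cdk4 were the 3 members with all stimulated arrays below all resting arrays, a separation seen in 3.78% of all probe sets. Cdkn1a alone of the members showed the reverse separation, seen in 3.47% of all probe sets.

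Ccnb2 fell 2.77-fold at 180 min (-1.47 ± 0.41, adjusted p = 0.00682 by limma) from the resting values given above to 647.8 and 752.9. Without LPS 180 min replicate 1 the Ccnb2 call was lost (adjusted p = 0.0682). Ccna2, the cyclin of S phase, fell by 1.00 ± 0.29 (adjusted p = 0.00923) and lost its call without the same array (-0.55, adjusted p = 0.284). Ccne1, cyclin E1 of the G1/S transition, was lower at 45 min (-0.82 ± 0.28, adjusted p = 0.0482), and at 180 min read -0.69 ± 0.29 (adjusted p = 0.065). The Ccne1 arrays were 896.7, 675.1, 563.8 and 651.7 at rest and 235.4 and 556.7 at 45 min. That call was lost without LPS 45 min replicate 1 (-0.28, adjusted p = 0.665), resting replicate 1 (0.103), replicate 2 (0.0674) or replicate 4 (0.0549).

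The 3 D cyclins did not move alike in wild type cells. Ccnd2 read 18.5, 22.5, 21.5 and 31.9 at rest, 24.4 and 202.8 at 45 min, and 452.2 and 570.9 at 180 min. Its arrays at 180 min lay above all resting and 45 min arrays, a rise over resting of 2.93 ± 0.46 (7.60-fold on the log2(signal + 50) scale, limma adjusted p = 2.01e-05). Ccnd3 fell by 0.81 ± 0.25 (adjusted p = 0.0133), from 576.9 to 960.3 at rest to 449.7 and 432.9, and lost its call without LPS 180 min replicate 1 (adjusted p = 0.0671) or replicate 2 (0.0874). Ccnd1 read 479.4, 320.5, 817.7 and 570.7 at rest and 532.8 and 400.6 at 180 min, and did not pass (-0.15 ± 0.28, adjusted p = 0.724).

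Of the 10 mitosis genes tested, 2 were lower at 45 min, and at 180 min 5 were lower and 1 was higher. Birc5 (survivin, of the chromosomal passenger complex) read 323, 987.4, 190.3 and 603.9 at rest, 175.9 and 150.7 at 45 min, and 70 and 114.4 at 180 min. Aurkb, the kinase of the same complex, read 77.2, 946.2, 282.3 and 404.3 at rest, 41.7 and 103.8 at 45 min, and 50.7 and 64.8 at 180 min. Aurkb varied most widely among resting arrays of this pair, and its 45 min values overlapped them. Birc5 fell by 1.22 ± 0.41 at 45 min (limma adjusted p = 0.0433) and by 1.82 ± 0.41 at 180 min (adjusted p = 0.00119), and Aurkb fell by 1.65 ± 0.52 (adjusted p = 0.0309) and changed by -1.79 ± 0.52 at 180 min (adjusted p = 0.00907).

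The 45 min calls of both were lost without resting replicate 2 (adjusted p = 0.125 for Birc5 and 0.0894 for Aurkb), resting replicate 4 (0.0827 and 0.0548), LPS 45 min replicate 1 (0.145 and 0.267) or replicate 2 (0.209 and 0.0651). At 180 min Birc5 kept its call under each removal of 1 array, and Aurkb lost it without LPS 180 min replicate 1 (0.0744). Cdc20, the activator of the anaphase-promoting complex, read 593.9, 2173.1, 458.4 and 1292.8 at rest and 236.4 and 254.4 at 180 min (-1.75 ± 0.41, 3.37-fold, adjusted p = 0.0015). All 28 stimulated arrays of Cdc20 except 1 lay below the lowest resting array. Aurka (-1.41 ± 0.44, adjusted p = 0.0141) lost its call without resting replicate 2 (0.0503) or LPS 180 min replicate 1 (-0.80, adjusted p = 0.316), and gave -2.03 without replicate 2. Cenpa, the centromeric histone, fell by 0.65 ± 0.24 (adjusted p = 0.0423), a call lost without resting replicates 1 (0.0901), 2 (0.137) or 4 (0.0608) or LPS 180 min replicates 1 (0.0744) or 2 (0.277). Top2a, Plk1, Cdc25a and Mad2l1 did not pass at either time. Probe sets disagreed for Plk1, whose weakest set gave -2.44 at 180 min (adjusted p = 0.000678) beside 0.13 for the set used. The third Plk1 set read 364.8 to 615.4 at rest, 193.7 and 172.3 at 45 min, and 313 and 359.2 at 180 min, below all resting arrays at both times. For Cdk2 the weaker set gave -1.64 (adjusted p = 0.0149) beside -0.36. Probe sets disagreed too for Mki67, counted among the 3 higher members with 2.20 ± 0.46 (adjusted p = 0.000536). Its other set read 161.4 to 364.4 at rest and 146 and 167.9 at 180 min (-0.53 ± 0.31, adjusted p = 0.204).

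Of the 6 genes for retinoblastoma proteins, E2F and inhibitors, Cdkn1a stood at the top. The p21 gene Cdkn1a read 1976.9, 946.8, 1499.5 and 954.1 at rest, 7405.9 and 12709.5 at 45 min, and 20251.5 and 23622.8 at 180 min. Its groups did not overlap, and the rise was 7.33-fold at 45 min (2.87 ± 0.34, limma adjusted p = 1.53e-06) and 16.5-fold at 180 min (4.04 ± 0.34, adjusted p = 1.56e-09). The weaker probe set of Cdkn1a read 1400.6 to 1733.6 at rest and 3750.6 and 4619.1 at 180 min (1.36 ± 0.18, adjusted p = 1.53e-06), in the same direction but smaller. Cdkn2c (p18, an inhibitor of Cdk4) went the other way at 180 min. It read 602.8, 1529.3, 736.9 and 1480.9 at rest and 415.2 and 349.3 at 180 min (-1.29 ± 0.26, adjusted p = 0.000337). Cdkn1b (p27) gave 0.82 ± 0.39 (adjusted p = 0.107) and -0.80 ± 0.47 with its other probe set (adjusted p = 0.204), and E2f1, Rb1 and Rbl1 did not pass.

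The remaining 3 proliferation-linked genes were Stmn1, Hmgb2 and Tubb5. Stmn1, whose protein destabilises microtubules and is abundant in dividing cells, read 1255.4, 5016.8, 1178.3 and 2416.9 at rest, 1283.1 and 722.5 at 45 min, and 578.1 and 480 at 180 min. The Stmn1 arrays at 45 min overlapped the resting ones, and those at 180 min lay below them. It fell by 1.06 ± 0.36 at 45 min (limma adjusted p = 0.0474) and by 1.88 ± 0.36 at 180 min (adjusted p = 0.000262). The 45 min call was lost without resting replicate 2 (adjusted p = 0.121), resting replicate 4 (0.0819), LPS 45 min replicate 1 (0.0519) or replicate 2 (0.417). Tubb5, a beta tubulin, fell by 0.65 ± 0.25 at 180 min (adjusted p = 0.0434), a call lost without resting replicates 2 (0.144) or 4 (0.115) or LPS 180 min replicates 1 (0.173) or 2 (0.144). Hmgb2 gave 0.96 ± 0.42 (adjusted p = 0.0835).

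The count of 23 members at 180 min dropped to 13 without LPS 180 min replicate 1, in which replicate 2 alone stood for the group. The count of 7 at 45 min was 3 without resting replicate 2, 4 without resting replicate 4, 11 without resting replicate 3, and 3 or 4 without LPS 45 min replicate 1 or 2.

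The second comparison set 180 min against 45 min within the stimulated cells, which share the growth medium and the stromal marker level, as the mean of 6 arms (3 genotypes, LPS with or without IL-10). Of the 44 members, 15 were lower at 180 min, 7 were higher and 22 did not pass. Over all probe sets, 25.8% were lower and 16% higher, so the share of members called higher lay near that of all probe sets and the share called lower somewhat above it. The median member change was -0.32, against -0.03 over all probe sets. Cdk1, Cenpa, Stmn1, Fen1 and Rb1 fell the furthest, and Mki67 and Ccnd2 rose 4.12- and 3.56-fold.

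**Figure D3:**
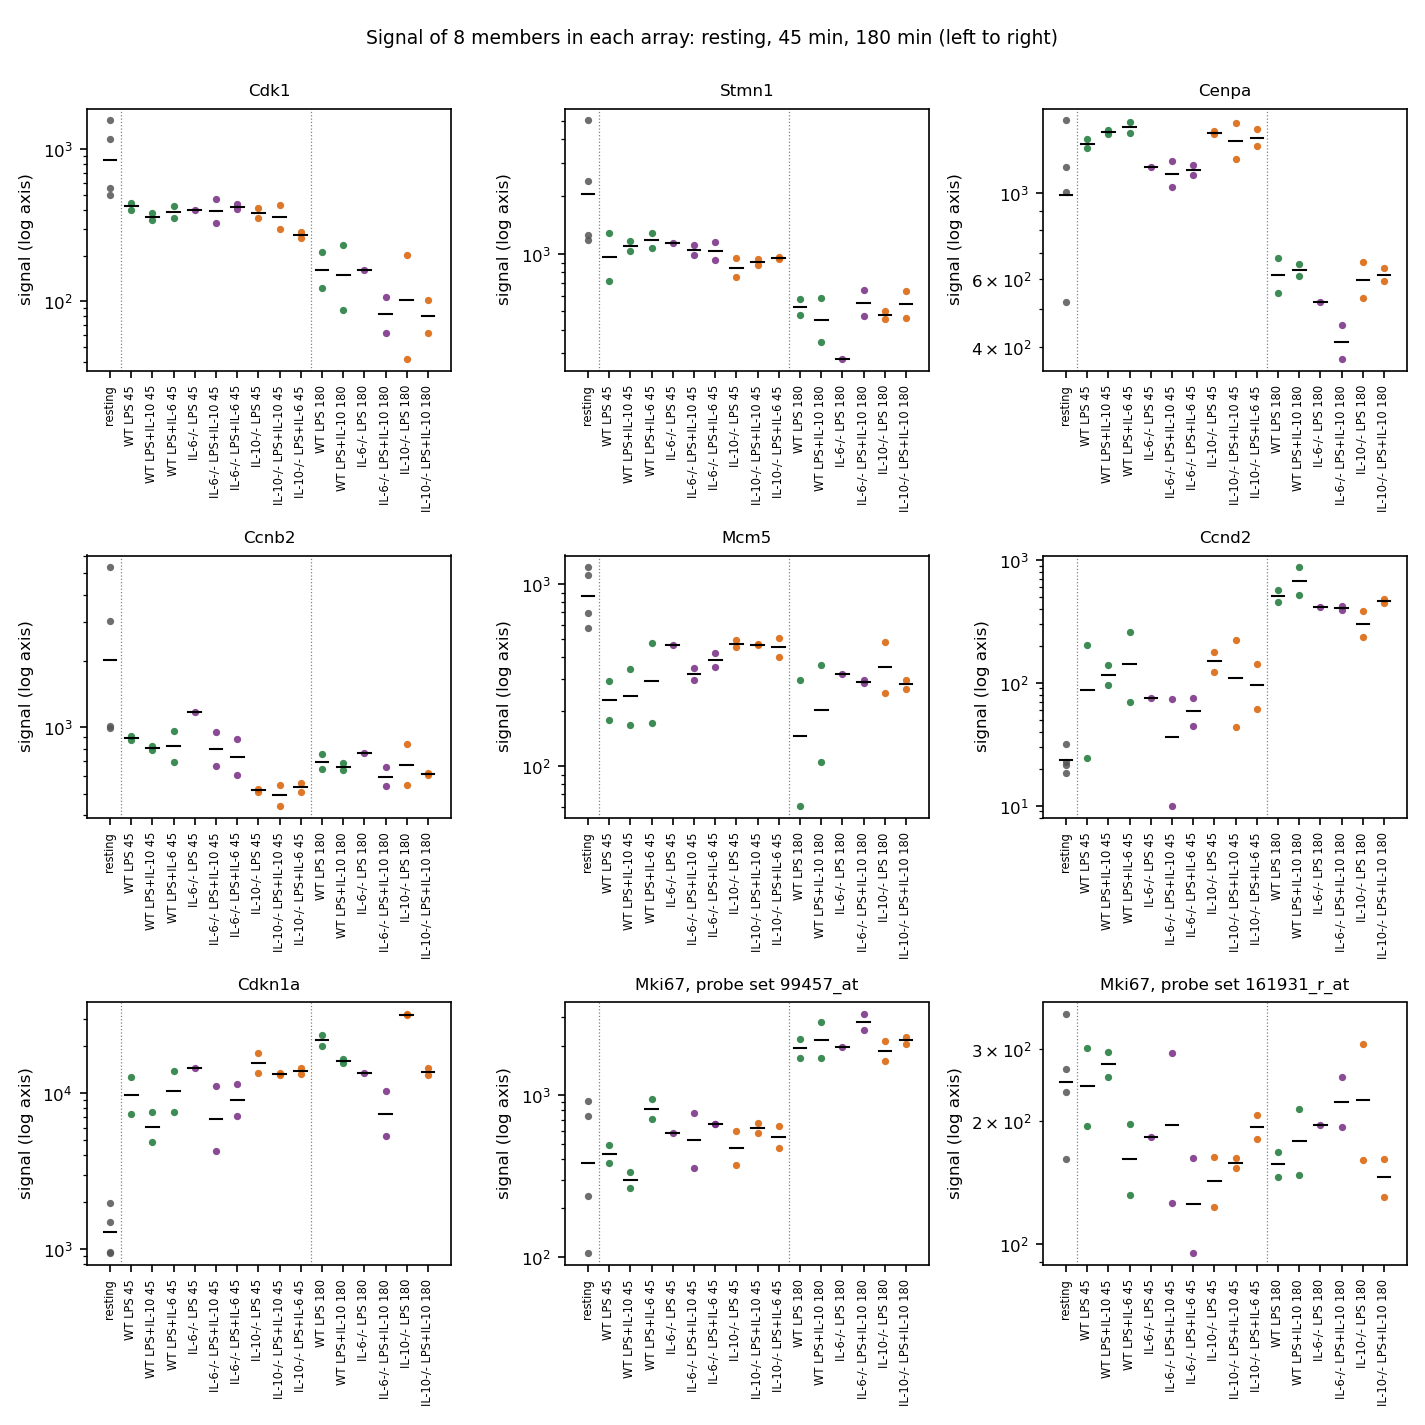
Each point is the signal of 1 array on a log axis, for 8 members (Mki67 with both probe sets), by group: resting (grey), wild type (green), IL-6-/- (purple) and IL-10-/- (orange), with 45 min left and 180 min right of the second dotted line. Short black lines are group means on the log2(signal + 50) scale. The 11 arrays at 180 min lie below the 17 at 45 min for Cdk1, Stmn1 and Cenpa and above them for Mki67 with 1 probe set.

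Cdk1 read 262.5 to 469.3 (median 398.7) in the 17 arrays at 45 min and 42.1 to 236 (median 106.8) in the 11 at 180 min. Its range at 180 min lay wholly below that at 45 min, and the fall was 2.57-fold (-1.36 ± 0.20, limma adjusted p = 4.36e-06), lower in 6 of 6 arms. Cenpa read 1037.2 to 1529.2 (median 1376.8) at 45 min and 372.4 to 680.4 (median 590.4) at 180 min, a fall of 1.15 ± 0.12 (2.22-fold, adjusted p = 4.21e-08). At 45 min the Cenpa signals were within the range of the 4 resting arrays, 521.6 to 1542.4. Stmn1 read 722.5 to 1290.3 (median 981.8) and 281.7 to 644.9 (median 480), a fall of 1.03 ± 0.19 (adjusted p = 6.65e-05). Fen1 read 193.8 to 410.4 (median 261.9) and 57.3 to 190.5 (median 133.6), a fall of 0.78 ± 0.16 (adjusted p = 0.000296). Cdk1, Cenpa, Stmn1 and Fen1 were the 4 members whose 180 min arrays all lay below all 45 min arrays, a separation seen in 6.19% of all probe sets. The calls in this comparison held under each of 20 removals of 1 array, apart from Cdkn1b, given below.

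Rb1, the retinoblastoma gene, read 222.7 to 426.6 (median 303.6) at 45 min and 71.3 to 260.6 (median 154.7) at 180 min, with 10 of 11 arrays at 180 min below the lowest at 45 min. It fell by 0.79 ± 0.14 (limma adjusted p = 4.35e-05). E2f1, which the retinoblastoma protein restrains, fell by 0.63 ± 0.18 (adjusted p = 0.00701), from a median of 127.1 to 76.1, in 5 of 6 arms. It gave -0.84 and -1.48 in the wild type arms and -1.2 in IL-6-/- cells with LPS, from 1 array at each time. The other arms gave -0.24 to 0.09, and E2f1 reached a signal of 200 in only 4 arrays. In fork synthesis 3 of 5 genes fell: Fen1, Pcna (-0.62 ± 0.14, adjusted p = 0.000607) and Rfc2 (-0.58 ± 0.12, adjusted p = 0.00022). Mcm3 was the only helicase gene of 7 that passed (-0.37 ± 0.10, adjusted p = 0.00284), and Mcm5 gave -0.39 ± 0.22 (adjusted p = 0.16). Of the cyclin and kinase genes, Ccnd3 (-0.69 ± 0.13, adjusted p = 8.86e-05), Ccnd1 (-0.67 ± 0.14, adjusted p = 0.000457), Ccng1 (-0.39 ± 0.12, adjusted p = 0.00941) and Cdk4 (-0.35 ± 0.07, adjusted p = 0.000213) fell with Cdk1. The other probe set of Ccnd1 gave -0.03 ± 0.31 (adjusted p = 0.958). Aurka (-0.73 ± 0.22, adjusted p = 0.00952) and Cdkn2c (-0.47 ± 0.13, adjusted p = 0.00491) completed the 15. In IL-10-/- cells Cdkn2c gave 0.09 with LPS and -0.02 with LPS and IL-10, against -1.03 to -0.52 in the other arms.

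Ccnd2 rose as Ccnd1 and Ccnd3 fell. It read 10 to 260.1 (median 75.6) at 45 min and 235.2 to 869.9 (median 446.5) at 180 min, with 10 of 11 arrays at 180 min above the highest at 45 min. The rise was 3.56-fold (1.83 ± 0.23, limma adjusted p = 5.58e-07) and present in 6 of 6 arms, where it ran from 0.82 in IL-10-/- cells with LPS to 2.41 in IL-6-/- cells with LPS and IL-10. Mki67, the gene of the Ki-67 proliferation antigen, read 264.4 to 936.3 (median 583.1) at 45 min and 1599.6 to 3111.4 (median 2136.6) at 180 min. All 11 arrays at 180 min lay above all 17 at 45 min, a separation seen in 3.54% of all probe sets, and the rise was 4.12-fold (2.04 ± 0.23, adjusted p = 9.48e-08). The second Mki67 probe set read 95.1 to 364.4 over all grouped arrays and did not pass (-0.06 ± 0.16, adjusted p = 0.808). Ki-67 is a defining marker of dividing cells. Mki67 moved in the opposite direction to Cdk1, Aurka and Cenpa, with 1 of its 2 probe sets.

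The smaller rises were Hmgb2, a chromatin protein gene (0.73 ± 0.21, limma adjusted p = 0.0078), the p21 gene Cdkn1a (0.60 ± 0.18, adjusted p = 0.00696), the spindle checkpoint gene Mad2l1 (0.59 ± 0.18, adjusted p = 0.0102), the p27 gene Cdkn1b (0.56 ± 0.20, adjusted p = 0.0237) and the phosphatase gene Cdc25a (0.41 ± 0.14, adjusted p = 0.0184). Each of these 5 was higher in 5 of 6 arms, a share not counted over all probe sets. Cdkn1a rose by 1.02 to 1.39 in both wild type arms and in IL-10-/- cells with LPS. In IL-10-/- cells with LPS and IL-10 it gave 0.05. In IL-6-/- cells it gave -0.11 with LPS, from 1 array at each time, and 0.1 with LPS and IL-10. The other Cdkn1a probe set was higher at 180 min in these arms. In IL-6-/- cells that set read 3219.7, then 7363.7 with LPS, and 3766.2 and 2778.3, then 4527.4 and 5082.8 with LPS and IL-10. In IL-10-/- cells with LPS and IL-10 that set read 3024.9 and 3232.3, then 5042.2 and 4473.4. Cdc25a gave -0.29 in wild type cells with LPS and 0.16 to 0.8 in the other arms. Mad2l1 read 200.3 to 388.2 (median 235.4) at 45 min and 205.3 to 723.6 (median 451.4) at 180 min, and Hmgb2 154.7 to 408.4 (median 240.1) and 217.4 to 1066.6 (median 448.4). The ranges of these genes overlapped between the times. The Cdkn1b call was lost without the IL-6-/- LPS plus IL-10 45 min replicate 1 (0.51, adjusted p = 0.0505), and its other probe set gave 0.06 ± 0.24. The calls of Ccnd1 and Cdc25a were lost when a gene's probe sets were averaged (adjusted p = 0.0956 and 0.179).

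**Figure D4:**
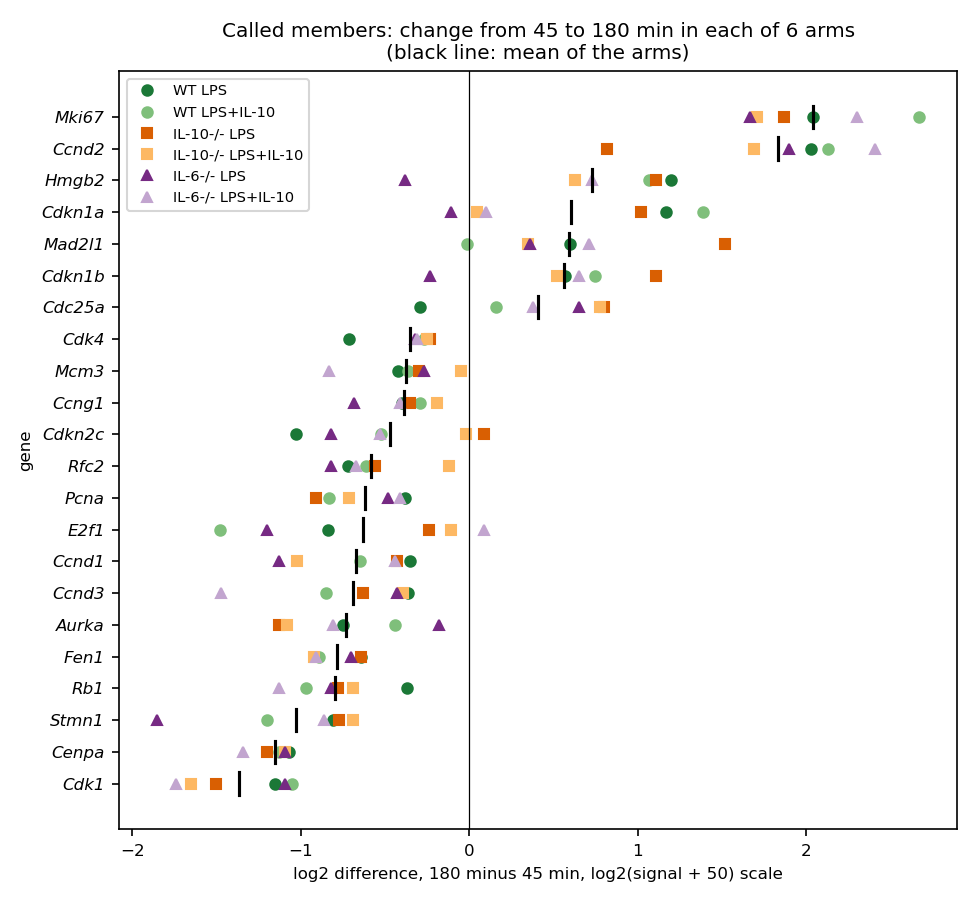
Each row is 1 of the 22 called members, and each marker gives the difference in group means between 180 and 45 min in 1 of 6 arms, on the log2(signal + 50) scale. Black lines are the mean of the arms: Cdk1 at -1.36 and Mki67 at 2.04 are the ends of the range.

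Across the arms, 16 members were lower in 6 of 6 and 2, Ccnd2 and Mki67, were higher in 6 of 6, against 23.8% and 13.9% of all probe sets. The single arms with 2 arrays at each time gave fewer calls. In wild type cells with LPS, 3 members were lower and 2 higher, where 7.13% and 6.77% of all probe sets were called. In IL-10-/- cells with LPS, 3 members were lower and 2 higher, against 10.5% and 6.57% of all probe sets. Over 15 stimulated group means, the members most like Cdk1 by Pearson correlation were Cenpa (0.92), Fen1 (0.90), Aurka (0.86), Rb1 (0.85), Ccnd3 (0.84) and Stmn1 (0.82). Those least like it were Mki67 (-0.91) and Ccnd2 (-0.87). The groups behind these correlations share the time course and the arrays, so they describe the pattern of time and are no test.

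In wild type cells with LPS, Cenpa read 1309.1 and 1376.8 at 45 min and 680.4 and 550.7 at 180 min (-1.07 ± 0.28, limma adjusted p = 0.0108), Cdkn2c read 722.2 and 953.1, then 415.2 and 349.3 (-1.03 ± 0.30, adjusted p = 0.0203), and Cdk4 fell by 0.71 ± 0.16 (adjusted p = 0.00276). Mki67 read 487.8 and 377, then 2209.3 and 1672.1 (2.04 ± 0.53, adjusted p = 0.00949), and Ccnd2 rose by 2.03 ± 0.53 (adjusted p = 0.0101). None of these groups overlapped. These genes were picked by the test on the same arrays, and the share of all probe sets without overlap was not counted. The Cenpa call was lost without LPS 45 min replicate 1 (adjusted p = 0.0534) or 2 (0.0721) or LPS 180 min replicate 2 (0.105). That of Cdkn2c was lost without LPS 45 min replicate 2 (0.171) or LPS 180 min replicate 1 (0.0528) or 2 (0.133). That of Ccnd2 was lost without LPS 45 min replicate 1 (1.14, adjusted p = 0.273; 2.91 without replicate 2) or LPS 180 min replicate 2 (0.0849), and that of Mki67 without LPS 45 min replicate 2 (0.0804) or LPS 180 min replicate 1 (0.0843). The mean of both Mki67 probe sets gave 0.77 (adjusted p = 0.136). The count of 5 became 2 without LPS 180 min replicate 2 and 3 without LPS 45 min replicate 2.

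In IL-10-/- cells with LPS, Cdk1 read 354.9 and 410.1 at 45 min and 42.1 and 201.5 at 180 min (-1.50 ± 0.45, limma adjusted p = 0.0225), Cenpa fell by 1.20 ± 0.28 (adjusted p = 0.00393), and Pcna read 3953.5 and 3633, then 2336.5 and 1707.8 (-0.91 ± 0.31, adjusted p = 0.0446). Mki67 rose by 1.87 ± 0.53 (adjusted p = 0.015), and Mad2l1 read 200.3 and 211.9, then 723.6 and 644.1 (1.52 ± 0.41, adjusted p = 0.011). The groups did not overlap in any of the 5, which the test had picked on the same arrays. Here too the share of all probe sets without overlap was not counted. Without LPS 180 min replicate 1 none of the 5 kept its call: Cdk1 (-0.78, adjusted p = 0.38, against -2.23 without replicate 2), Cenpa (0.06), Pcna (0.0617), Mki67 (0.119) and Mad2l1 (0.0809). Cdk1, Mad2l1 and Pcna also lost it without LPS 45 min replicate 1 (0.0738, 0.0654 and 0.182) or replicate 2 (0.134, 0.0587 and 0.133), Mki67 without LPS 45 min replicate 2 (0.152), and Pcna without LPS 180 min replicate 2 (0.294). The count of 5 was 2 without LPS 45 min replicate 1, 1 without replicate 2 and 0 without LPS 180 min replicate 1. Whether wild type and IL-10-/- cells differed in this change over time was not tested.

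A list of 106 further genes of the same machinery, of which 67 were tested, was counted beside the members. At 45 min in wild type, 6 were lower and 4 higher than at rest, and at 180 min 22 were lower and 4 higher, beside 7.75% lower and 9.00% higher, and 19.4% lower and 14.4% higher, of all probe sets. Myc, which drives growth and cycle entry, read 6.3 to 22.9 at rest, 468.9 and 447.8 at 45 min, and 300.8 and 282.9 at 180 min (3.03 ± 0.26 and 2.46 ± 0.26, limma adjusted p = 5e-09 and 6.12e-08). Mdm2, the ligase that degrades p53, read 608.4 to 914.9 at rest, 4241 and 1915.6 at 45 min, and 2834.5 and 2298.7 at 180 min (1.89 ± 0.22 and 1.73 ± 0.22). Both genes rose without any overlap with resting cells, as Cdkn1a did, a separation not counted over all probe sets for wild type arrays. Cdkn2b (p15) rose at 180 min (1.89 ± 0.31, adjusted p = 3.58e-05), from 9.3 to 22.5 at rest to 205.4 and 179.8.

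The lower genes of that list at 180 min were led by Gmnn, the licensing inhibitor geminin (-2.54 ± 0.35, limma adjusted p = 2.94e-06), and by Mxd4 (-2.46 ± 0.22, adjusted p = 2.62e-09) and Mnt (-2.36 ± 0.40, adjusted p = 5.93e-05), partners of Max that oppose Myc. Gmnn read 191.9, 336.1, 217.3 and 623.2 at rest and 12.1 and 11.9 at 180 min in wild type. At 45 min it was Kif20a (-1.82 ± 0.57, adjusted p = 0.0318), Cdk5 (-1.17 ± 0.21, adjusted p = 0.000326) and Orc2 (-1.15 ± 0.38, adjusted p = 0.0391), with Mxi1 rising (0.79 ± 0.20, adjusted p = 0.00889). The Kif20a call was lost without resting replicates 2 (0.0897) or 4 (0.0747) or LPS 45 min replicate 1 (-1.02, adjusted p = 0.422, against -2.62 without replicate 2), that of Mxi1 without LPS 45 min replicate 1 (0.131), and that of Orc2 without resting replicates 2 (0.0614) or 4 (0.0827) or LPS 45 min replicates 1 (0.178) or 2 (0.151).

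From 45 to 180 min, over the 6 arms, 26 of the 67 were lower and 5 higher, beside 25.8% and 16% of all probe sets. Mxi1, another antagonist of Myc, read 1237.5 and 1499.1 at 45 min and 434.3 and 346.6 at 180 min in wild type with LPS, and over the arms fell 3.85-fold (-1.95 ± 0.10, limma adjusted p = 9.23e-14). Gmnn (-1.60 ± 0.18, adjusted p = 5.41e-08) and Mxd4 (-1.60 ± 0.11, adjusted p = 1.34e-11) followed. E2f5 (1.03 ± 0.14, adjusted p = 1e-06), Cdkn2b (0.77 ± 0.16, adjusted p = 0.00029) and Orc2 (0.60 ± 0.19, adjusted p = 0.0135) rose. In wild type cells with LPS alone 9 were lower and 2 higher (7.13% and 6.77% of all probe sets), and in IL-10-/- cells 13 were lower and 2 higher (10.5% and 6.57%). Gmnn (-2.19 ± 0.40, limma adjusted p = 0.000354) and Mxi1 (-1.69 ± 0.23, adjusted p = 1.08e-05) led in wild type, and Dnmt1 (-1.79 ± 0.46, adjusted p = 0.00823), Mxi1 (-1.77 ± 0.23, adjusted p = 6.04e-06) and Mxd4 (-1.64 ± 0.25, adjusted p = 3.68e-05) in IL-10-/- cells. These calls held under each removal of 1 array, except that Dnmt1 lost its call without IL-10-/- LPS 45 min replicate 2 (0.088) or LPS 180 min replicate 1 (-0.59, adjusted p = 0.387; -2.99 without replicate 2), and with its probe sets averaged (-0.80, adjusted p = 0.118). In wild type Dnmt1 fell by 1.57 ± 0.46 (limma adjusted p = 0.0236), a call lost with its probe sets averaged (-0.81, adjusted p = 0.129) or without LPS 45 min replicates 1 (0.0719) or 2 (0.133) or LPS 180 min replicate 1 (-0.99, adjusted p = 0.318), and it gave -2.16 without LPS 180 min replicate 2. These calls of Mxi1, Gmnn, Mxd4, E2f5, Cdkn2b and Orc2 over the 6 arms held under each removal of 1 array. The 2 higher genes in wild type cells with LPS were Cdkn2b (1.81 to 1.96 under removals of 1 array) and Cdkn2d (0.75 to 1.01). In IL-10-/- cells the 2 were Cdc25c (0.90 to 1.65) and Ccng2 (0.71 to 0.91). Cdkn2d lost its call under 4 of 4 removals, Cdc25c under 3 of 4 and Ccng2 under 1 of 4.

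Added IL-10 was the third comparison, LPS with IL-10 against LPS alone. No member passed at 45 min over the mean of 3 genotypes, by limma, where 2 had an unadjusted p under 0.05 and 1.03% of all probe sets were called. None passed at 180 min either, where 6 had an unadjusted p under 0.05 and 3.82% of all probe sets were called. In single genotypes at 180 min none passed in wild type (2 at an unadjusted p under 0.05, 0.134% of all probe sets called) or in IL-10-/- cells (3 and 3.54%). Setting the IL-10 response of IL-10-/- cells against that of wild type gave no member (2 at an unadjusted p under 0.05, 0.559% of all probe sets called). Mcm4 and Cdkn1a had the smallest adjusted p at 180 min.

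**Figure D5:**
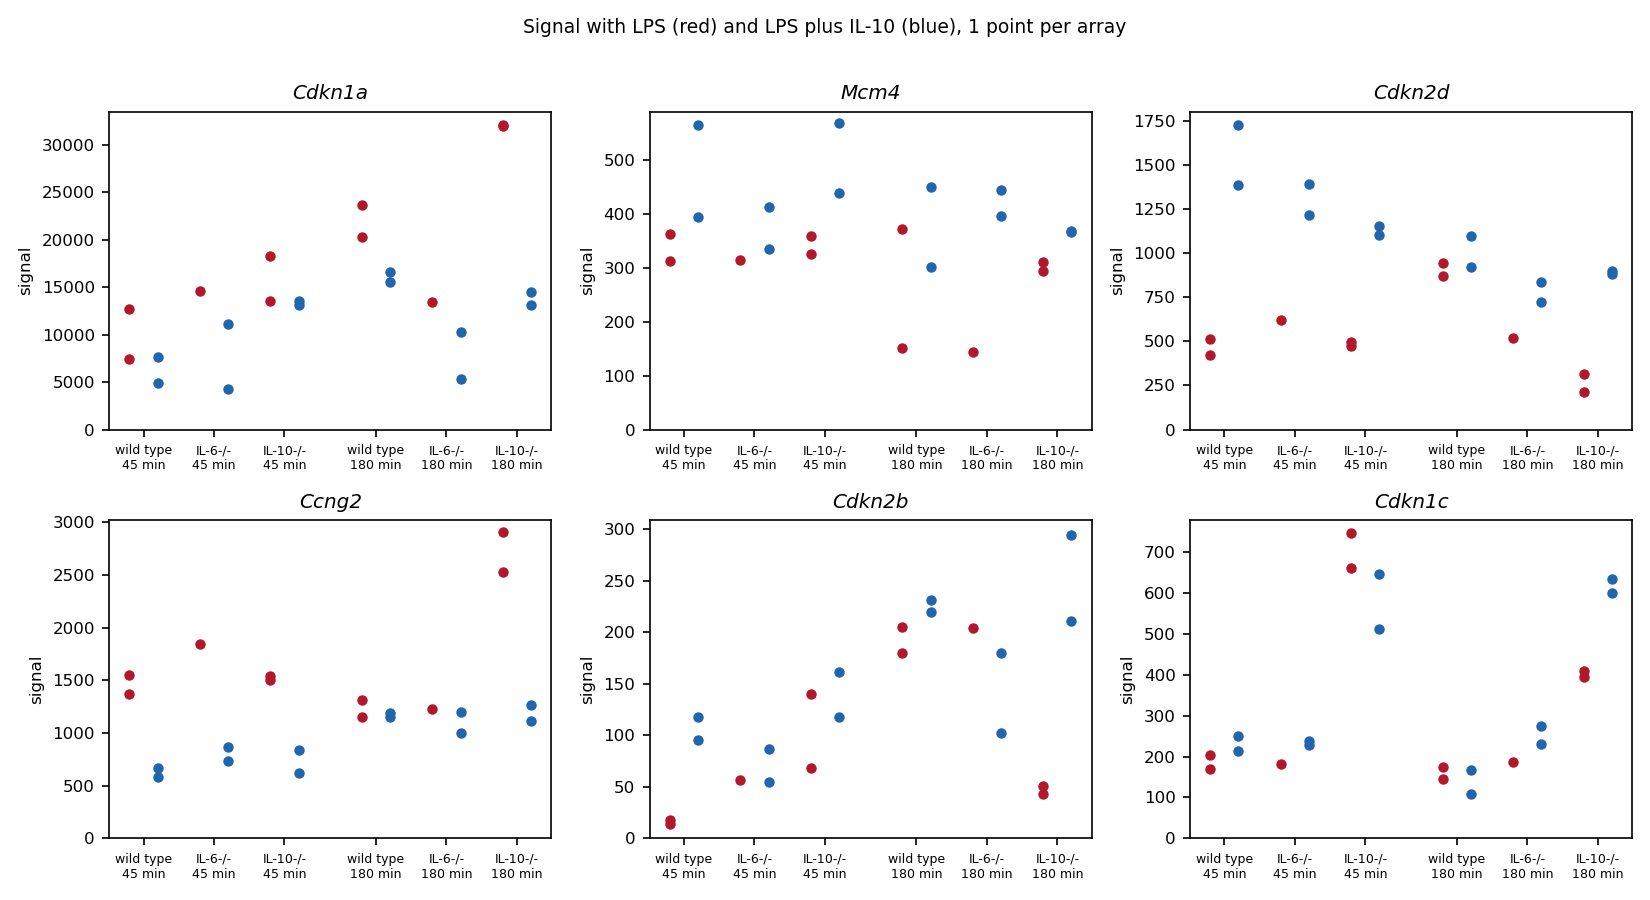
Signals of Cdkn1a, Mcm4 and 4 genes that are not members (Cdkn2d, Ccng2, Cdkn2b and Cdkn1c) in each array with LPS (red) and with LPS plus IL-10 (blue), by genotype and time, on linear axes from 0. In IL-10-/- cells at 180 min the blue points lie below the red for Cdkn1a and Ccng2 and above them for Cdkn2d, Cdkn2b and Cdkn1c.

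Cdkn1a read 31971.4 and 32128.1 with LPS at 180 min in IL-10-/- cells, and 13089.6 and 14541.4 with added IL-10. In wild type it read 20251.5 and 23622.8, and 15566.1 and 16615.7 with IL-10, and in IL-6-/- cells 13467.3, and 5293.7 and 10302.1 with IL-10. In each genotype the arrays with IL-10 lay below those without, for this probe set. With the weaker probe set that held in both knockouts, but the wild type arrays overlapped. They read 3750.6 and 4619.1 with LPS, and 3247.9 and 4880.5 with IL-10. The share of all probe sets with such a separation was not counted. For the probe set used, the mean difference was -0.84 ± 0.25 (limma adjusted p = 0.0609), and in IL-10-/- cells -1.21 ± 0.40 (adjusted p = 0.117). With a pseudocount of 200 (adjusted p = 0.0455), a filter at 500 (0.0461) or the mean of both probe sets (-0.68, adjusted p = 0.00174) Cdkn1a passed over the genotypes, and so it did without the IL-6-/- LPS plus IL-10 180 min replicate 2 (0.0297). The mean of both probe sets also passed within IL-10-/- cells (-1.04, adjusted p = 0.00245) and between IL-10-/- and wild type cells with LPS at 180 min (0.81, adjusted p = 0.0291).

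Mcm4, a helicase subunit, read 372.2 and 150.8 with LPS at 180 min in wild type and 450.5 and 301.1 with IL-10, 143.8 and then 443.5 and 396.5 in IL-6-/- cells, and 311.3 and 293.1 and then 366.8 and 367.8 in IL-10-/- cells. The wild type arrays of Mcm4 overlapped, and those of the other genotypes did not. Its mean difference was 0.68 ± 0.20 (limma adjusted p = 0.0584), and Mcm4 passed with a filter at 500 (0.0409), with probe sets averaged (0.0476), without the wild type LPS 180 min replicate 1 (0.86, adjusted p = 0.00898) and without the wild type LPS plus IL-10 180 min replicate 2 (0.0459).

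Among the 67 other genes of the machinery, Cdkn2d (p19, an inhibitor of Cdk4) rose and Ccng2, an unusual cyclin linked to arrest, fell with IL-10 at both times. At 45 min Cdkn2d read 425.6 and 516 with LPS and 1728.2 and 1385.2 with IL-10 in wild type, and no IL-10 array of any genotype overlapped an LPS array (1.26 ± 0.18, limma adjusted p = 7.54e-05). Ccng2 read 1373.4 and 1553.9, then 663.4 and 579 with IL-10 in wild type (-1.12 ± 0.13 over the genotypes, adjusted p = 2.5e-06). At 180 min the differences were 0.76 ± 0.18 for Cdkn2d (adjusted p = 0.0132) and -0.46 ± 0.13 for Ccng2 (adjusted p = 0.0399), and in wild type alone none of the 67 passed (limma, 1 at an unadjusted p under 0.05). The 180 min call of Cdkn2d was lost without the IL-10-/- LPS 180 min replicate 2 (0.0551). That of Ccng2 was lost without replicate 2 of wild type LPS (0.115), replicates 1 (0.0686) or 2 (0.0871) of wild type LPS plus IL-10, IL-6-/- LPS plus IL-10 replicate 2 (0.123), IL-10-/- LPS replicate 1 (0.117) or 2 (0.0564), or IL-10-/- LPS plus IL-10 replicate 1 (0.0608) or 2 (0.115).

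Within IL-10-/- cells at 180 min, Cdkn2d read 313 and 215.4 with LPS and 879.9 and 901.4 with IL-10 (1.60 ± 0.29, limma adjusted p = 0.000803), and Ccng2 2903 and 2526.2, then 1261 and 1114.3 (-1.16 ± 0.20, adjusted p = 0.000662). Cdkn2b read 43.3 and 50.8, then 294.6 and 211 (1.63 ± 0.36, adjusted p = 0.00655). That call was lost without LPS replicate 1 (0.0718) or LPS plus IL-10 replicate 1 (0.139). Cdc25c fell from 177 and 153.1 to 24.3 and 21 (-1.56 ± 0.40, adjusted p = 0.0243), a call lost without either LPS array (0.19 and 0.118) or either LPS plus IL-10 array (0.136 and 0.168). None of the 67 passed in the difference of the IL-10 response between IL-10-/- and wild type (limma, 4 at an unadjusted p under 0.05).

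Added IL-6 at 45 min moved no member (limma, 0 at an unadjusted p under 0.05), where 0.547% of all probe sets were called. Member differences with IL-6 ran from -0.28 to 0.41, and the smallest adjusted p was 1. None of the 67 other genes passed either (limma, 3 at an unadjusted p under 0.05).

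Genotypes were compared last. Over the 3 arms at 45 min, 1 of 9 tested stromal markers was higher in IL-10-/- and 1 lower in IL-6-/- than in wild type cells, and its part in the differences was not tested. In IL-10-/- against wild type cells over 3 arms at 45 min, 1 of 44 members passed, with 9 at an unadjusted p under 0.05 and 1.29% of all probe sets called. That member was Pcna, the sliding clamp of DNA polymerase, which read 3489.1 to 3992.5 in the 6 IL-10-/- arrays and 1899.5 to 3219.5 in the 6 wild type arrays. The groups did not overlap, and the difference was 0.71 ± 0.18 (1.63-fold, limma adjusted p = 0.0479). The Pcna call was lost without each of the 12 arrays in turn (adjusted p from 0.062, without wild type LPS plus IL-6 replicate 1, to 0.162, without replicate 2 of that group), while the difference stayed between 0.65 and 0.77. Cdkn1a gave 0.75 ± 0.23 (adjusted p = 0.13) in the same comparison.

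At 180 min IL-10-/- and wild type cells gave no called member with LPS (5 at an unadjusted p under 0.05 by limma, 2.87% of all probe sets called) or with LPS and IL-10 (1 at an unadjusted p under 0.05, 0.219%). The 1 was Pcna, which read 2507.9 and 2049.7 in IL-10-/- and 1489.1 and 755.4 in wild type cells (1.06 ± 0.31, adjusted p = 0.317), and it passed when replicate 1 of the wild type group was left out (1.52, adjusted p = 0.0469). IL-6-/- against wild type cells over 3 arms at 45 min gave no called member (2 at an unadjusted p under 0.05 by limma, 2.25% of all probe sets called). There Cdc45 read 0.90 ± 0.32 (adjusted p = 0.167), and it passed without the IL-6-/- LPS plus IL-10 45 min replicate 1 (1.21, adjusted p = 0.0426).

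Of the 67 other genes, Cdkn1c (p57, an inhibitor of cyclin-dependent kinases) was higher in IL-10-/- cells. It read 511.6 to 746.9 in the 6 IL-10-/- arrays at 45 min, and 203.7, 170.6, 212.9, 249.7, 246.7 and 297.5 in wild type (1.29 ± 0.17, limma adjusted p = 2.93e-05), with no overlap. At 180 min it read 395.7 and 410.6 against 175 and 145.1 with LPS (1.11 ± 0.29, adjusted p = 0.0318), and 634.9 and 601.2 against 108.8 and 167.2 with LPS and IL-10 (1.85 ± 0.29, adjusted p = 0.00195). The first of these calls was lost without wild type LPS replicate 1 (0.0858) or 2 (0.253) or IL-10-/- LPS replicate 1 (0.156) or 2 (0.199), and the second without IL-10-/- LPS plus IL-10 replicate 1 (0.0876). With LPS at 180 min, Ccng2 was also higher (1.11 ± 0.20, adjusted p = 0.00176) and Cdkn2d (-1.62 ± 0.29, adjusted p = 0.00114) and Cdkn2b (-1.32 ± 0.36, adjusted p = 0.0447) lower in IL-10-/- cells. The Cdkn2b call was lost without either wild type array (0.197 and 0.184) or either IL-10-/- array (0.256 and 0.183). In IL-6-/- cells Pttg1, securin, was lower at 45 min, with 450.9 to 581.6 in 5 arrays against 1062.9 to 1384.1 in 6 wild type arrays (-1.07 ± 0.14, adjusted p = 4.27e-05).

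The 5 members below the filter are given by their means. Mcm6 averaged 41.4, Rfc4 63.2, Prim1 64.1, Bub1 50.8 and Kif11 101.9 over the grouped arrays. Kif11, a mitotic kinesin, reached its highest signal in resting replicate 2 (407.7). Prim1, the primase subunit, read 189.7, 163, 56.6 and 233.5 at rest and 52.1 and 4 in wild type cells after 180 min of LPS. Bub1 read 107.9, 187.8, 72 and 147.6 at rest and 8.9 and 26.3 at that time. The others did not share this. Mcm6 read 49.8, 16.2, 10.1 and 15.5 at rest and, higher, 62.6 and 106.5 at that time. Rfc4 overlapped, with 47.2, 219.2, 72.2 and 109.3 at rest, then 55.3 and 22.3. So did Kif11, with 157.1, 407.7, 96.6 and 161.6 at rest, then 99 and 86.6. These 5 members were left out of the main tests, and entered the counts only in the alternative without a filter.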

How the data were processed

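The samples were 34 Affymetrix arrays of mouse macrophage RNA, 32 in 16 groups and 2 left out of all comparisons because their labels conflict or give no genotype. The deposited values are MAS5 signal intensities (linear), per the submitters' processing notes, with no version given. Each array's mean without the outer 2% at each end lies between 500.29 and 500.4, so the authors' arrays were scaled to 500. A description on every sample speaks of embryos, against its other labels, and was not used.

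Of 12488 probe sets, 66 were controls. Names came from the platform table, in which 10855 probe sets have 1 gene symbol, 396 have several and 1237 are not listed. Probe sets with a signal of 200 or more in at least 2 grouped arrays were kept, 8224 in all. Tests were run on log2(signal + 50) with limma 3.58.1 in R 4.3.3 (lmFit, and eBayes with trend), with 16 group means, 16 residual degrees of freedom and Benjamini-Hochberg adjustment over all probe sets kept in each of 15 comparisons. The script was tested on simulated data. The number of arrays limits the precision, and the lone IL-6-/- arrays were assumed to vary like the other groups.

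Genes given array by array were up to 5 called members per direction and comparison with the largest change, the MCM, D cyclin and inhibitor families, and up to 3 called genes per direction of the wider list. Members outside that choice, the probe sets that disagree and the 5 below the filter were named after their values were seen. A lack of overlap between groups was counted over all probe sets only where that share is given. The members and lists were chosen with earlier results of these data known. Replicate numbers were checked for pairing in 23 pairs of groups: correlations of same-numbered deviations ran from 0.02 to 0.441, all above 0 but only 13 over 0.1. Pairing was taken only where every pair lay over 0.1, so the replicate block is an alternative here. Alternatives changed the pseudocount, filter, normalization, variance trend, probe set rule, replicate block and arrays used. Promoter windows are RefSeq's on GRCm38.p6.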

Additional observations from a re-analysis of the deposited data

Results flagged for a closer look

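Cdc6, which loads the helicase onto origins, read 204.6 in resting replicate 2, where the 4 resting arrays had a median of 106.0. The gap between that array and the next, set against the whole range of the group, was past Dixon's 95% critical value. It was the 1 such value among 44 members checked in the resting arrays, where chance alone gives about 1 in 20 groups. Its cause was not tested.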

How the results depend on the processing

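Of 1936 recomputed values, 1745 kept their direction and their side of the threshold, 191 kept the direction but no longer passed, and 0 reversed. Of 106 called values, 63 kept their call under each removal of 1 array and 43 lost it under some, as given beside each gene; the lone IL-6-/- arrays could not be left out. Member counts under those removals ran from 3 to 11 in wild type at 45 min against resting (7 with all arrays), 13 to 26 at 180 min against resting (23), 2 to 4 between the times in wild type (5), 0 to 4 between the times in IL-10-/- (5) and 21 to 24 over 6 arms (22). They ran from 0 to 1 for IL-10 at 180 min over genotypes, for IL-10-/- against wild type with LPS plus IL-10 and for IL-6-/- against wild type (0 each), and stayed at 0 for Pcna's comparison (1). A fit on the wild type LPS and resting arrays alone, chosen after seeing the data, gave 3 at 45 min, 13 at 180 min and 0 between the times. With a replicate block the counts were 8 between the times in wild type, 9 in IL-10-/-, 1 for IL-10 at 180 min over genotypes (Cdkn1a), 1 for IL-10 in IL-10-/- (Hmgb2), 1 for IL-10-/- against wild type with LPS plus IL-10 (Pcna), 9 and 27 against resting and 23 over 6 arms. The replicate block ended the calls of Ccnd3 at 180 min (-0.60, adjusted p = 0.0966) and of Aurkb (-1.58, adjusted p = 0.0624) and Orc2 (-0.97, adjusted p = 0.0967) at 45 min against resting; whether replicate numbers mark a shared culture or day is not given. For IL-10 at 180 min over genotypes, a pseudocount of 200 gave 1, a filter at 500 gave 2 and the mean of a gene's probe sets gave 2; that mean also gave 1 for IL-10 in IL-10-/- and 1 for IL-10-/- against wild type with LPS at 180 min. For IL-10-/- against wild type at 45 min, a pseudocount of 10, no filter, quantile normalization and no variance trend each gave 0, with Pcna at an adjusted p of 0.056 to 0.0962. Pcna kept its call there with a pseudocount of 200 (0.0325), a filter at 500 (0.0378), probe sets averaged (0.0476), resting replicate 4 left out (0.0365) and the replicate block (0.000846). The causes were not tested. Signals near the filter of 200 limit what low genes can show.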

Other observations

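The arrays left out of all comparisons are given as values beside the grouped ranges. The first, titled 45 min with no genotype, read 460.4 for Cdk1, 766.2 for Mki67, 1008.5 for Cenpa, 101.4 for Ccnd2 and 5654.4 for Cdkn1a. The second, an IL-6-/- array titled 45 min whose treatment label gives 180 min, read 151 for Cdk1, 2735.5 for Mki67, 451.6 for Cenpa, 281.2 for Ccnd2 and 9435.8 for Cdkn1a. The grouped arrays of Cdk1 ran from 262.5 to 469.3 at 45 min and from 42.1 to 236 at 180 min, and those of Mki67 from 264.4 to 936.3 and from 1599.6 to 3111.4.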
